A study of Homo sapiens with 6 samples.

Results

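Actin filaments carry the shape, adhesion and movement of a cell. The genes described here encode this machinery: actins, the proteins that crosslink, cap, sever and branch actin filaments, non-muscle myosins that pull on them, and the adaptors that anchor them at focal adhesions, where integrins grip the matrix. They were chosen as a list of 52 gene symbols. The rule held no measured value, but earlier results of these data were known, so counts of members are descriptions. 45 of the 52 had a probe set that named no other gene, out of 11963 genes so annotated on the array. ACTG1, FHL1, FLNA, FLNC, TPM3, CFL2 and CAP1 had none and were not analysed here, and 8 probe sets listed for ACTB and ACTG1 together were not used. MYH10 lay under the filter on low values, and 44 members were tested. Most members were bright: their median lay at percentile 84.2 of the mean signal among the 7178 genes tested.

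The samples were U87 cells, a human glioblastoma line, grown for 16 h in medium with 10% serum. IRE1dn cells expressed a dominant negative transgene of IRE1alpha, a sensor of stress in the endoplasmic reticulum, and ctrl cells carried the empty plasmid. Each group had 3 arrays, each from total RNA. The labels name a single clone for the IRE1dn cells and speak of clones for the controls, so a difference between clones and an effect of the transgene cannot be told apart. The comparison was made to look for IRE1alpha-dependent genes of invasion and angiogenesis in tumours. The labels do not say whether arrays of a group came from different cultures; the p-values then reflect only array-to-array spread, possibly technical.

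Values are array signals, scaled by the authors so that the trimmed mean of each array was 100.03 units; median signals lay between 18.4 and 21.03. The ERN1 transcript, which encodes IRE1alpha, measured 11.1 ± 1.58 units in IRE1dn and 12.3 ± 1.53 in ctrl cells (SD, n = 3 each), under the filter level of 13.0, and its probe set need not lie in the transgene, so it does not check the labels. On their mean over the 6 arrays, the glioma cell markers VIM, CD44 and NES were above that level, while GFAP, S100B and OLIG2 were under it. OLIG2 read 15.1, 24.9 and 9.20 in ctrl and 2.34, 3.45 and 4.46 in IRE1dn arrays, with groups apart. On the same mean, all measured markers of leukocytes (4), endothelium (4) and epithelium (5) were under the filter level. Of 5 striated muscle markers 1, ACTC1, was above. Summed signals of these lists overlapped between the groups except for endothelium, at 9.32 to 11.8 in IRE1dn and 13.1 to 30.03 in ctrl arrays. The glioma sum was mostly VIM and CD44 and could not show the OLIG2 difference. The part of these markers in the members' values was not tested. IRE1dn array 3 held the highest of 6 signals for 20 of the 44 members.

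Most called changes in this machinery were increases. They were spread over actin, adhesion, crosslinking, calponin, myosin, ERM, severing and capping genes. By contrast, 2 subunits of the branching complex, 1 subunit of capping protein and SVIL fell. The calls of ACTB (actin), EZR and RDX (ERM), CAPZB (capping) and ARPC3 (branching) did not hold in every alternative setting. Neither did those of VCL, TLN1, PDLIM5 and CNN2. Among turnover and capping genes 20% were higher, close to the 17.9% of all genes. Of 44 tested members, 16 rose and 4 fell in IRE1dn cells at a limma adjusted p under 0.05. The background was 34.4% of all genes called, 17.9% higher and 16.5% lower, against 45.5% of the members. The median log2 change, IRE1dn minus ctrl, was 0.42 among the members and 0.01 among all genes tested. The 3 arrays of the groups did not overlap for 27 members, 23 of them higher and 4 lower, where 50.2% of all genes were apart (26.0% higher, 24.2% lower). With ctrl array 2 and IRE1dn array 3 both left out, 11 members rose and 3 fell. Probe sets whose names end in _s_at or _x_at can match related transcripts; without them 22 members were tested, of which 9 rose and 2 fell. With arrays set to equal medians 11 rose and 4 fell, and ACTB, TLN1, EZR, RDX and CAPZB no longer passed. In a bulk measurement, fewer cells with a transcript and less of it per cell cannot be told apart.

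**Figure D1:**
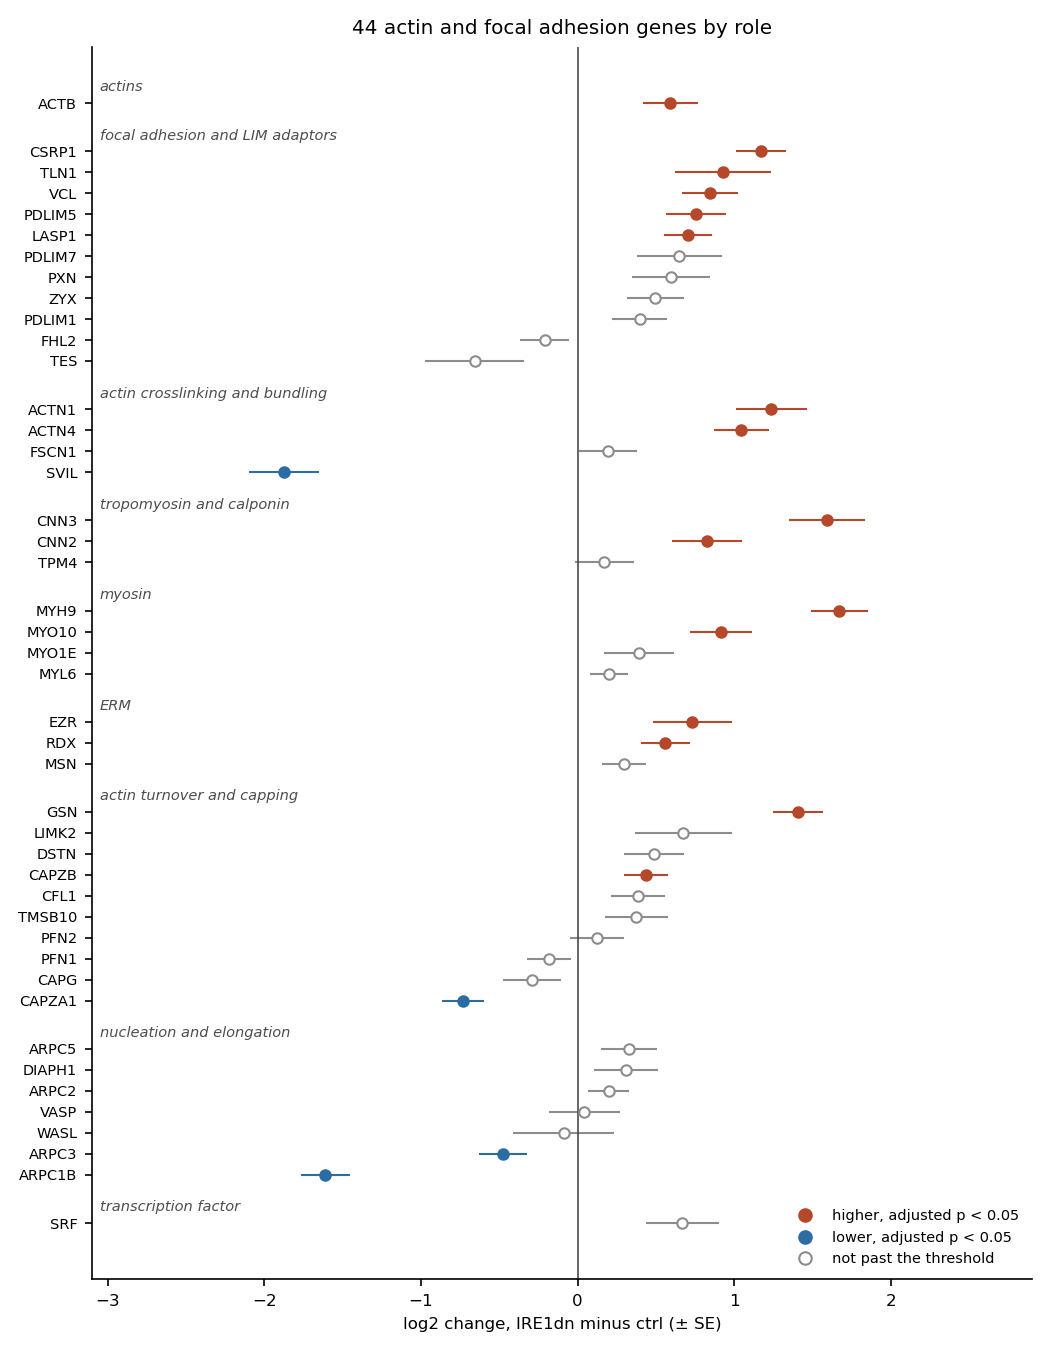
Log2 change of the 44 tested members, IRE1dn minus ctrl, with its SE on the horizontal axis, grouped by role. The 16 red points rose and the 4 blue points fell past the threshold; MYH9 had the largest increase (1.67) and SVIL the largest decrease (-1.88).

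**Figure D2:**
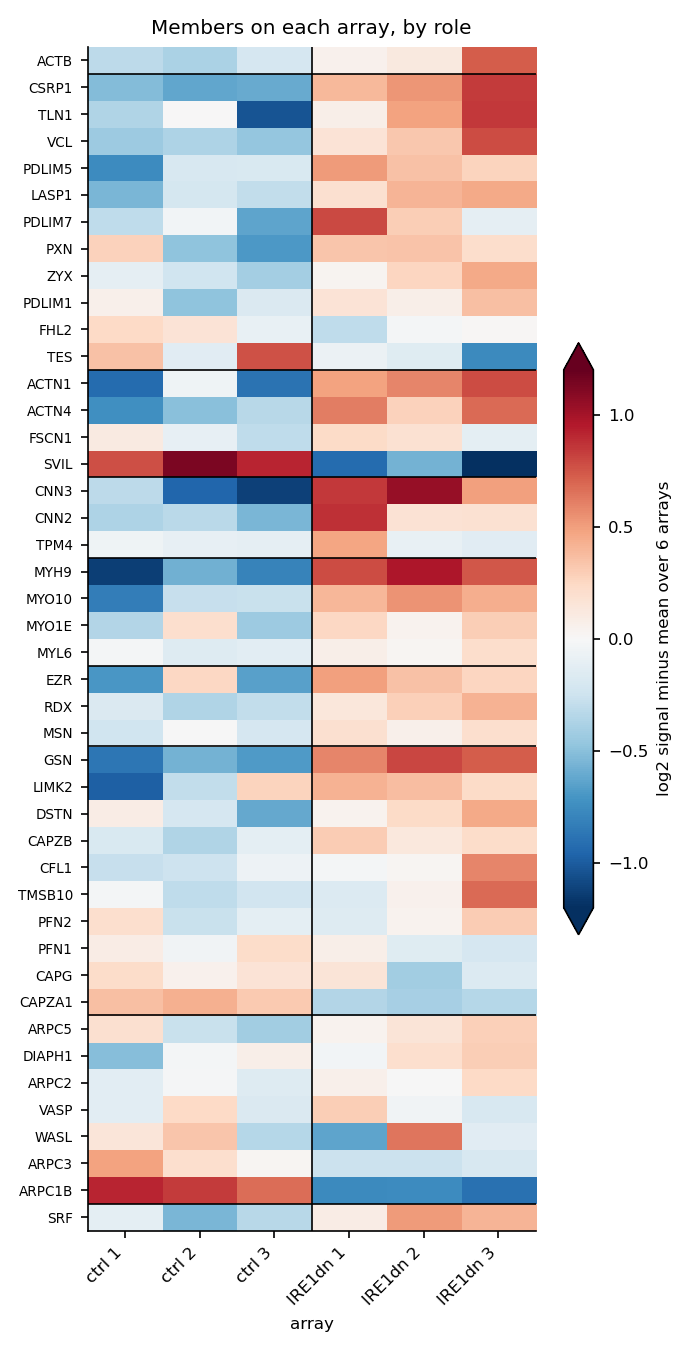
Log2 signal of each tested member on each of the 6 arrays, minus that member's mean over the arrays; rows are genes by role, columns are arrays. SVIL, CAPZA1, ARPC3 and ARPC1B show the opposite colouring from most rows.

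Many actin genes are controlled by serum response factor, the product of the member SRF, which binds a sequence known as the CArG box. The cofactors MRTFA and MRTFB act with it when actin monomers release them. Promoters from 250 bases before to 50 after each start site were searched for this box (CC, then 6 bases of A or T, then GG, a pattern that reads alike on both strands), in RefSeq sequences of build GRCh38.p14. 48 of the 52 members had an entry; ACTB, PFN2, ARPC1B and FSCN1 had none. A box was found in 13 of 92 member promoters, 14.1%, against 1.29% of all 35116 promoters, and in 11 of 48 member genes, 22.9%, against 1.6% of all genes. Among members with a single promoter the share was 13.8% (4 of 29), against 1.26% of all such genes. Of the 8 tested members with a box, ACTN1 and CNN2 rose, SVIL fell, and SRF, TES, FHL2, MYO1E and TPM4 did not pass. Among all genes tested, 34.4% were called. A box was held by 13.3% of the members called higher (2 of 15), 33.3% of those called lower (1 of 3) and 22.7% of those not called (5 of 22). Stretches upstream of the start sites of 6 tested members are shown, as their boxes were alike in form while their calls differed. Whether the changes of these genes differed from each other was not tested. Capitals mark the boxes, and each stretch is written 5′ to 3′ on the gene's strand.
SRF, chr6:43171194-43171268, plus strand: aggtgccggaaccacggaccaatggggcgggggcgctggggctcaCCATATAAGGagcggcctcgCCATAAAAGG
ACTN1, chr14:68977683-68977782, minus strand: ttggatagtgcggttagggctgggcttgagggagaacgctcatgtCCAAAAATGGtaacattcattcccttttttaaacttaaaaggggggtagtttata
CNN2, chr19:1026474-1026573, plus strand: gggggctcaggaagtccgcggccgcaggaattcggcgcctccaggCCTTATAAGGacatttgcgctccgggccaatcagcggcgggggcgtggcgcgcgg
SVIL, chr10:29634972-29635049, minus strand: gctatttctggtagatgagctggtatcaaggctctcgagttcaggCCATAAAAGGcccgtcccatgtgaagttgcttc
TPM4, chr19:16067320-16067419, plus strand: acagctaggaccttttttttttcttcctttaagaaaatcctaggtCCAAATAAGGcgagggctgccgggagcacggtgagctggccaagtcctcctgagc
FHL2, chr2:105399056-105399155, minus strand: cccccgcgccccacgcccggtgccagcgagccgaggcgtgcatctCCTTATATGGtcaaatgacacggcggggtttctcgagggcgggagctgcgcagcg
SRF carried 2 boxes, beginning 30 and 10 bases before its start site. The box of CNN2 began 89 bases before the start site and that of SVIL 33 bases before it. ACTN1, SVIL and FHL2 have 4 annotated promoters each, and TPM4 has 3. The array does not tell which promoter gave the transcript. A box in the sequence is a match of letters, not a measured binding site.

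SRF itself had signals of 35.9, 48.7 and 45.2 in IRE1dn and 30.8, 22.5 and 26.3 in ctrl arrays. The groups did not overlap, and the log2 change was 0.67 (SE 0.23; limma adjusted p = 0.051), just short of the threshold. It passed without ctrl array 1 (limma adjusted p = 0.042), with a pseudocount of 16 (0.047) and with array weights (0.020). It also passed without the intensity trend (0.032) or with a robust trend (0.049), and in no other setting. A second SRF probe set, with means of 5.94 and 8.46 units under the filter level, pointed the other way in value (-0.58). Its cofactors MRTFA and MRTFB, named after their values were seen, changed by 0.53 and 0.56 (limma adjusted p = 0.096 and 0.072), with groups apart. Of the 4 listed cofactor genes 0 passed, while 3 were higher and 0 lower at an unadjusted limma p under 0.05.

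ACTB, beta-actin, had signals of 4199, 4389 and 6716 in IRE1dn and 3271, 3124 and 3529 in ctrl arrays. All IRE1dn arrays lay above all controls, and array 3 lay far above the other two. ACTB rose by 0.59 on the log2 scale (SE 0.18; limma adjusted p = 0.028). The rise was 0.38 without IRE1dn array 3 (adjusted p = 0.031) and 0.26 after quantile normalization (0.033). The call ended without ctrl array 1 (0.075) or 2 (0.082), and without ctrl array 2 and IRE1dn array 3 together (0.068). It also ended without the filter (0.080), with equal medians (0.073), without the intensity trend (0.067) and with array weights (0.051). The array also holds control probe sets along the ACTB transcript. Their IRE1dn over ctrl ratio of means was 0.44 on the log2 scale at the 3′ end, 0.39 in the middle and 0.30 at the 5′ end, with groups apart in each (exact permutation p = 0.1, two-sided, the smallest that 3 against 3 allows; 0.13 adjusted over 4 measures). The ratio of the 3′ to the 5′ signal, a measure of RNA integrity, was 1.09, 1.21 and 1.64 in IRE1dn and 1.21, 1.16 and 1.19 in ctrl arrays (exact permutation p = 0.7; 0.7 adjusted). IRE1dn array 3 thus had both the brightest ACTB signal and the largest ratio; the part of this ratio in other members' values was not tested.

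Of 11 tested focal adhesion and LIM domain adaptors 5 rose and 6 did not pass, with a median log2 change of 0.65. The share higher was 45.5%, against 17.9% of all genes. On the lower side 0 passed, and 0 had an unadjusted limma p under 0.05. CSRP1, a LIM protein that binds alpha-actinin and zyxin, had signals of 797, 878 and 1088 in IRE1dn and 423, 395 and 398 in ctrl arrays. The controls were close together and every IRE1dn array was well above them, a rise of 1.17 (SE 0.16; limma adjusted p = 0.00082). VCL, vinculin, which reinforces the link from talin to actin, had signals of 802, 897 and 1232 against 529, 552 and 520. It rose by 0.85 (SE 0.18; adjusted p = 0.0063), again with separate groups. Its other probe set was lower in value (-0.84), but with means of 3.90 and 6.86 units it lay under the filter level. Averaging both gave VCL a change of 0.0043 (adjusted p = 0.99).

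LASP1, an actin-binding adaptor, measured 916, 1065 and 1095 in IRE1dn and 545, 689 and 653 in ctrl arrays. It rose by 0.71 (SE 0.15; limma adjusted p = 0.0075), with no overlap. PDLIM5, a PDZ and LIM adaptor of alpha-actinin, measured 700.3, 624 and 589 against 288, 429 and 431. It rose by 0.75 (SE 0.19; 0.014). Of its 9 probe sets 8 were higher in value and 1 was lower. The lower one was under the filter level, and so were the higher ones at 0.08, 0.01 and 0.84. The call of PDLIM5 ended without IRE1dn array 1 (0.056) or 2 (0.052), and the mean of the 9 changed by 0.46 (0.086). TLN1, talin, which couples integrins to actin, measured 54.8, 73.4 and 95.1 against 40.3, 52.2 and 24.6. The lowest IRE1dn array lay just above the highest control. TLN1 rose by 0.93 (SE 0.31, limma adjusted p = 0.040). The call ended without ctrl array 1 (0.067) or 3 (0.083) or without IRE1dn array 2 (0.11) or 3 (0.16). It also ended without the filter (0.072), with quantile normalization (0.056), with equal medians (0.059) and with the replicate block (0.055). 

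The other adaptors did not pass. Zyxin (ZYX) changed by 0.50 and paxillin (PXN) by 0.60. Both passed with the mean of their probe sets (0.62 and 0.84, limma adjusted p = 0.031 and 0.0074) and with array weights (0.036 and 0.019). The only other setting in which they passed was without ctrl array 1 (0.57 and 0.88, limma adjusted p = 0.043 and 0.0076). PXN measured 148 in that array and 87.01 and 75.4 in the other controls, against 142 to 156 in IRE1dn cells. PDLIM1 changed by 0.40 and PDLIM7 by 0.65; PDLIM1 passed without ctrl array 1 (0.041). The tumour suppressor testin (TES) and the LIM cofactor FHL2 were lower in value, at -0.66 and -0.21 (limma adjusted p = 0.13 and 0.33).

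Among crosslinkers both alpha-actinins rose, while SVIL fell. ACTN1, alpha-actinin 1, which bundles stress fibres and anchors them at adhesions, had signals of 1542, 1657 and 1898 in IRE1dn and 581, 1064 and 596 in ctrl arrays. Ctrl array 2 stood apart from the other controls but below every IRE1dn array. The rise was 1.24 (SE 0.23; limma adjusted p = 0.0036), and all 3 ACTN1 probe sets rose in value, by 1.24 to 1.45. ACTN4, alpha-actinin 4, measured 859, 676 and 894 against 335, 394 and 443. It rose by 1.05 (SE 0.17; 0.0022), with the lowest IRE1dn array well above the highest control. FSCN1, fascin, which bundles filopodial actin, changed by 0.20 (adjusted p = 0.45), with overlapping groups.

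SVIL, supervillin, links actin and myosin II to the membrane and was placed with the crosslinkers. It measured 67.9, 87.6 and 51.2 in IRE1dn and 225, 288 and 247 in ctrl arrays. The control mean was 3.67 times the IRE1dn mean, and the groups lay far apart. SVIL fell by 1.88 (SE 0.22, limma adjusted p = 0.00040), and a second probe set was also lower in value, at -1.61. The third gave -0.41 with overlapping groups, and with means of 2.46 and 3.67 units it lay under the filter level.

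**Figure D3:**
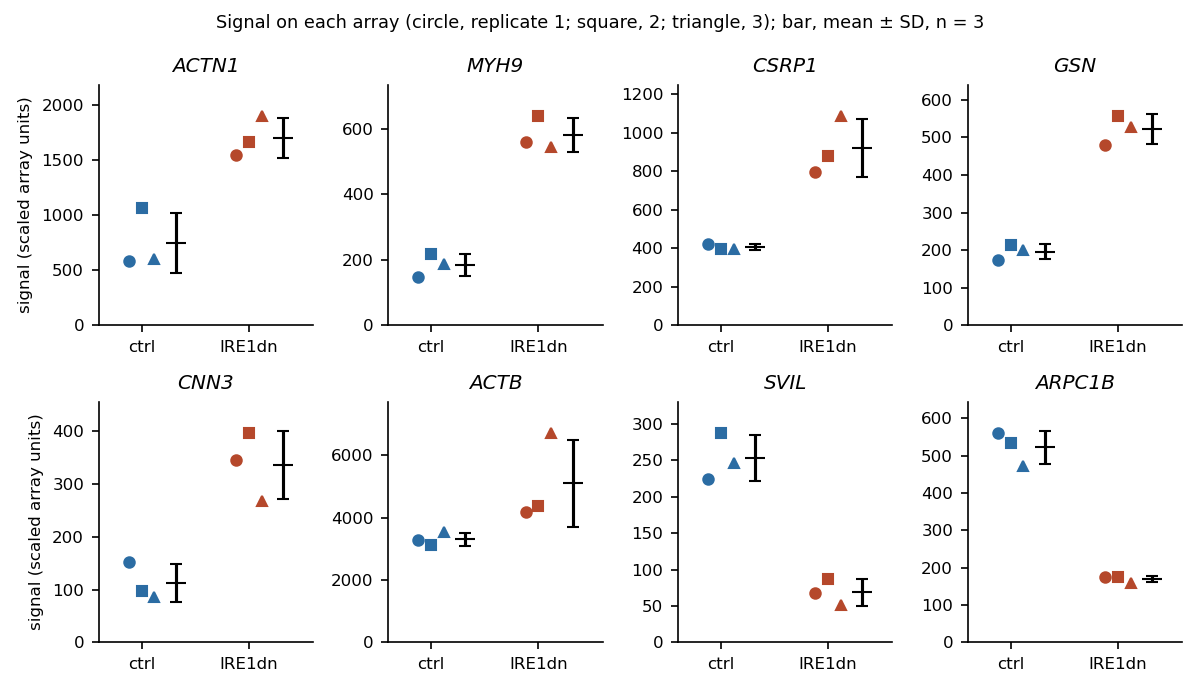
Signal in scaled array units for 8 members on each array, with the mean and SD (n = 3) beside the points; every axis starts at 0. In each panel the IRE1dn arrays lie entirely above the controls, except SVIL and ARPC1B, where they lie entirely below.

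Both calponins among the members rose. CNN3, a calponin of non-muscle cells that steadies actin filaments, measured 345, 396 and 268 in IRE1dn and 152, 97.6 and 86.5 in ctrl arrays. Its rise of 1.59 (SE 0.24; limma adjusted p = 0.0014) was a 3.00-fold ratio of means. CNN2 measured 249, 152 and 153 against 104, 107 and 91.5. IRE1dn array 1 stood above the other two. CNN2 rose by 0.82 (SE 0.22; 0.019), or by 0.59 without that array, where the call ended (0.069). The tropomyosin TPM4 changed by 0.17 (0.51): IRE1dn array 1 read 641, while the others read 419.6 to 443, and without that array the value was -0.0249.

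Myosin genes were all higher in value, and 2 of 4 tested rose. The share higher was 50% of few genes, beside 17.9% of all genes. MYH9, the heavy chain of non-muscle myosin IIA, which drives contraction of stress fibres, measured 561, 639 and 544 in IRE1dn and 148, 217 and 185 in ctrl arrays. Every IRE1dn array was far above every control. MYH9 rose by 1.67 (SE 0.18; limma adjusted p = 0.000285), the largest increase of any tested member. MYO10, an unconventional myosin that carries cargo to filopodial tips, measured 226, 249 and 230.3 against 95.02, 139.9 and 141. It rose by 0.92 (SE 0.20; 0.0072), and its other probe set by 1.16 in value. MYL6, the essential light chain of myosin II, changed by 0.20 and MYO1E by 0.39 (0.22 and 0.20). A dimmer MYL6 probe set, with means of 29.9 and 12.3 units, gave 1.295, and the mean of both passed (0.75; 0.021). MYH10, the heavy chain of myosin IIB, read 1.11 to 17.1 units and overlapped between groups; a fit without the filter gave 0.91 (SE 0.58; limma adjusted p = 0.33).

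The ERM proteins ezrin, radixin and moesin tie cortical actin to the membrane, and 2 of the 3 rose with a median change of 0.56. With only 3 genes, the 66.7% higher is a weak figure beside the 17.9% of all genes. RDX measured 413, 461 and 503 in IRE1dn and 333, 292 and 306 in ctrl arrays. It rose by 0.56 (SE 0.16; limma adjusted p = 0.021) with groups apart, but not without IRE1dn array 2 (0.091) or 3 (0.097), and the mean of its 3 probe sets changed by 0.28 (0.31). EZR measured 315, 286 and 269 against 138, 267 and 142. Ctrl array 2 almost reached the lowest IRE1dn array. EZR rose by 0.73 (SE 0.25, limma adjusted p = 0.048), and all 5 of its probe sets were higher in value (0.48 to 1.25). The one at 0.48 had means of 2.42 and 1.07 units, under the filter level. The EZR call ended without any single array except ctrl array 2 (0.10 to 0.14). It also ended without the filter (0.071), with equal medians (0.060), without the intensity trend (0.065) and with array weights (0.056). MSN, moesin, changed by 0.30 (0.12).

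Of 10 turnover and capping genes tested, 2 rose and 1 fell; the share called, 30.0%, was under the 34.4% of all genes. Their median change of 0.38 dropped to 0.16 without IRE1dn array 3 and to 0.18 after quantile normalization. GSN, gelsolin, which severs and caps filaments in response to calcium, measured 479, 557 and 529 in IRE1dn and 174, 215 and 199 in ctrl arrays. The arrays within each group were close and the groups far apart, a rise of 1.41 (SE 0.16; limma adjusted p = 0.00032). Capping protein closes the fast-growing filament end as a heterodimer. The calls of its partners pointed in opposite directions, but only the fall of CAPZA1 held in every setting that tested it. CAPZA1, an alpha subunit, measured 613, 596 and 618 against 1009, 1053 and 977. It fell by 0.73 (SE 0.13; 0.0032) with very little spread in either group. CAPZB, the beta subunit, measured 1022, 899 and 960.2 against 725, 643 and 762. CAPZB rose by 0.44 (SE 0.14, limma adjusted p = 0.039), and its call ended without any single IRE1dn array (0.092 to 0.12) or ctrl array 2 (0.10). The CAPZB call also ended without the filter (0.061), with equal medians (0.087), without the intensity trend (0.077) and with the replicate block (0.062). The mean of its 4 probe sets changed by 0.29 (0.27). They include a probe set with means of 3.34 and 2.98 units, under the filter level.

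Cofilin, profilin and thymosin, which control the supply of actin monomers, did not pass. CFL1, cofilin 1, measured 2543, 2635 and 3889 in IRE1dn and 2147, 2187 and 2486 in ctrl arrays. The groups were apart, but only IRE1dn array 3 lay far from the controls. The change was 0.39 (SE 0.17; limma adjusted p = 0.11), and 0.19 without that array. TMSB10, a monomer-binding thymosin, changed by 0.38, and by 0.13 without IRE1dn array 3. DSTN (destrin) changed by 0.49, PFN1 and PFN2 (profilins) by -0.19 and 0.13 (PFN2 by -0.10 without ctrl array 2 and IRE1dn array 3), and CAPG, a gelsolin relative, by -0.29. LIMK2, a kinase that inactivates cofilin, changed by 0.68 (0.12). DSTN passed without ctrl array 1 (0.65, limma adjusted p = 0.031) and LIMK2 without ctrl array 3 (0.98, 0.019). A second bright DSTN probe set, with means of 1264 units in IRE1dn and 1240 in ctrl cells, gave only 0.06.

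Of 7 nucleation and elongation genes 2 fell and 0 rose, and 0 were higher at an unadjusted limma p under 0.05. The share called, 28.6%, was under the 34.4% of all genes. Their median of 0.04 had no stable sign. It was -0.0345 without ctrl array 3, 0.21 without IRE1dn array 1 and 0.17 without ctrl array 2. Without _s_at and _x_at probe sets only 3 genes were tested, and the median of -0.47 was the value of ARPC3. ARPC1B, a subunit of the Arp2/3 complex that starts branches on existing filaments, measured 174, 175 and 159 in IRE1dn and 560.3, 533 and 473 in ctrl arrays. The control mean was 3.08 times the IRE1dn mean. ARPC1B fell by 1.61 (SE 0.16; limma adjusted p = 0.00015), the smallest adjusted p among the members. ARPC3, another subunit, measured 868, 865 and 909 against 1454, 1193 and 1055. It fell by 0.47 (SE 0.15, limma adjusted p = 0.038), and the call ended without any single array except ctrl array 3 (0.067 to 0.13). The ARPC3 call also ended without the filter (0.068), without the intensity trend (0.077) and with the replicate block (0.060). The subunits ARPC2 and ARPC5 changed by 0.20 and 0.33 (0.26 and 0.18); ARPC5 passed without ctrl array 1 (0.50; 0.031). The Arp2/3 activator WASL, the formin DIAPH1 and the elongation factor VASP changed by -0.09, 0.31 and 0.04, with overlapping groups (0.86, 0.27 and 0.90); VASP turned to -0.0167 after quantile normalization and -0.0238 with equal medians, and WASL to 0.20 with array weights. The difference between these role groups was not tested.

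Probe sets of a member mostly pointed the same way. Of 24 members with several probe sets, 20 had all of them on the same side of 0, and VCL, PDLIM5, SRF and DIAPH1 did not. Of the 10 called members among these, 8 had every probe set on the side of the call. These counts include probe sets under the filter level, whose side carries little weight. The highest-mean probe set of 26 of the 45 members was of a type that can be shared with related transcripts or splice forms, among them those of ACTB, VCL, MYH9, GSN and SVIL.

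**Figure D4:**
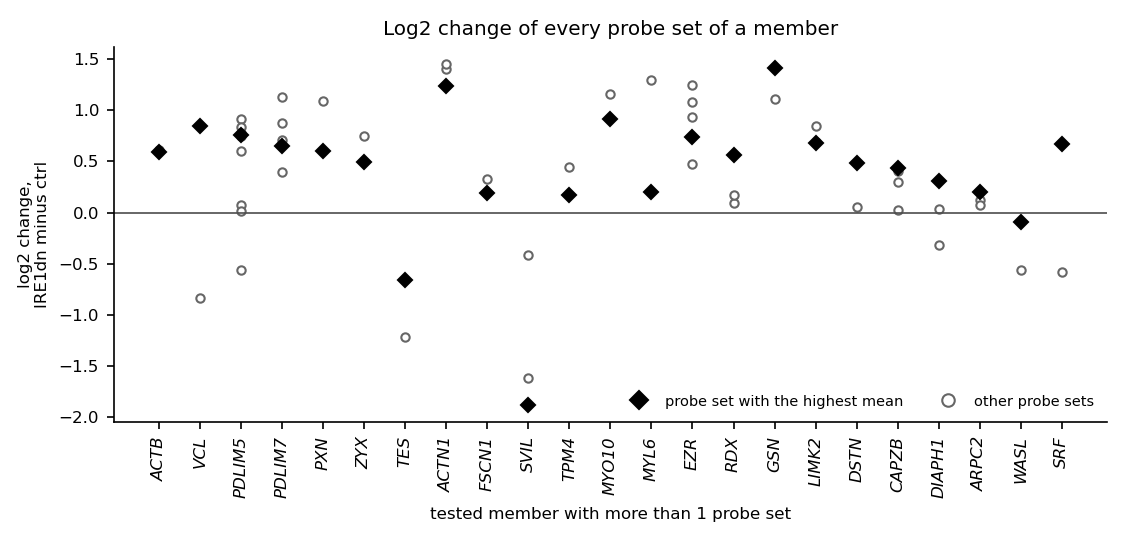
Log2 change of every probe set of the tested members with more than 1; diamonds are the highest-mean probe sets used for the results and circles are the others. VCL (0.85 and -0.84), SRF (0.67 and -0.58), PDLIM5 and DIAPH1 have circles on the other side of 0 from the diamond.

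Beyond the members, 93 further genes of actin regulation and adhesion were listed by function, and 81 were tested. Increases numbered 25 and decreases 8, and the median change was 0.35 on the log2 scale, beside the background of 17.9% and 16.5%. The decreases numbered 3 without IRE1dn array 2, 2 without IRE1dn array 3, 4 without ctrl array 1 and 2 without ctrl array 2, and 14 genes rose and 1 fell with ctrl array 2 and IRE1dn array 3 left out. Crosslinkers and membrane linkers had 9 of 14 higher and 0 lower, led by the LIM protein PDLIM3 (2.81, SE 0.35), MARCKSL1 (2.27, SE 0.25) and the adducin ADD3 (1.45, SE 0.23; limma adjusted p at most 0.0017). PDLIM3 read 4.10, 11.6 and 3.97 in ctrl arrays, under the filter level, so it was tested only through its IRE1dn signal, and its value was 1.61 with a pseudocount of 16. On the lower side 0 also had an unadjusted limma p under 0.05.

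Adhesion scaffolds had 6 of 16 higher and 2 lower. The share higher was 37.5%, against 17.9% of all genes. LPP, a zyxin relative, rose by 1.61, the tensin TNS1 by 1.48 and parvin (PARVA) by 1.44, while TRIP6 and the focal adhesion kinase PTK2 fell by 0.62 and 0.54 (limma adjusted p = 0.023 and 0.040). Of 15 nucleators 2 rose and 2 fell, and the 26.7% called was under the 34.4% of all genes. The formin DIAPH2 and the Ena protein ENAH rose by 2.09 and 0.81, and ABI1 and ARPC1A, the alternative form of ARPC1B, fell by 0.76 and 0.69. Of 7 turnover genes CAP2 rose by 1.48, and TWF2 and the other capping alpha subunit CAPZA2 fell by 1.13 and 0.53. Called turnover genes made up 42.9%, beside 34.4% of all genes. Of 8 light chains and unconventional myosins MYO1D and MYO9B rose by 2.80 and 0.76, and MYL12B fell by 0.48. The 37.5% called was close to the 34.4% of all genes. MYO1D read 1.12, 2.01 and 23.0 in ctrl arrays, with a mean under the filter level. Without IRE1dn array 3 the calls of TNS1, TRIP6, PTK2, ENAH, ABI1, CAPZA2, MYO9B and MYL12B ended. All of these but ABI1 were also lost without IRE1dn array 2, and all but MYO9B without ctrl array 2. TNS1, PTK2, CAPZA2 and MYL12B were lost without IRE1dn array 1, and these and ENAH without ctrl array 1, where TNS1 changed by 0.97. The control mean of TNS1, 10.8, was also under that level, and its change was 0.77 without _s_at and _x_at probe sets (limma adjusted p = 0.13). With a pseudocount of 16 the values were 1.37 for MYO1D, 0.74 for TNS1 and 1.36 for DIAPH2, and without ctrl array 2 and IRE1dn array 3 the calls of MYO1D and DIAPH2 ended (0.10 and 0.072). With the mean of all probe sets LPP rose by 0.76 and DIAPH2 changed by 0.81 (limma adjusted p = 0.028 and 0.17).

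The smooth muscle contractile genes, a neighbouring set, had 7 of 9 tested genes higher and 1 lower, with a median of 1.55. The share higher was 77.8%, against 17.9% of all genes. TAGLN, ACTG2 and MYL9 rose by 6.19, 3.98 and 3.54; the control means of TAGLN and ACTG2, 8.74 and 12.4, lay under the filter level, so both were tested only through their IRE1dn signal and the sizes of their changes are not exact. SMTN, smoothelin, fell by 1.09 (limma adjusted p = 0.021; the call ended without IRE1dn array 2 or 3 or ctrl array 2, at 0.065 to 0.086).

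**Figure D5:**
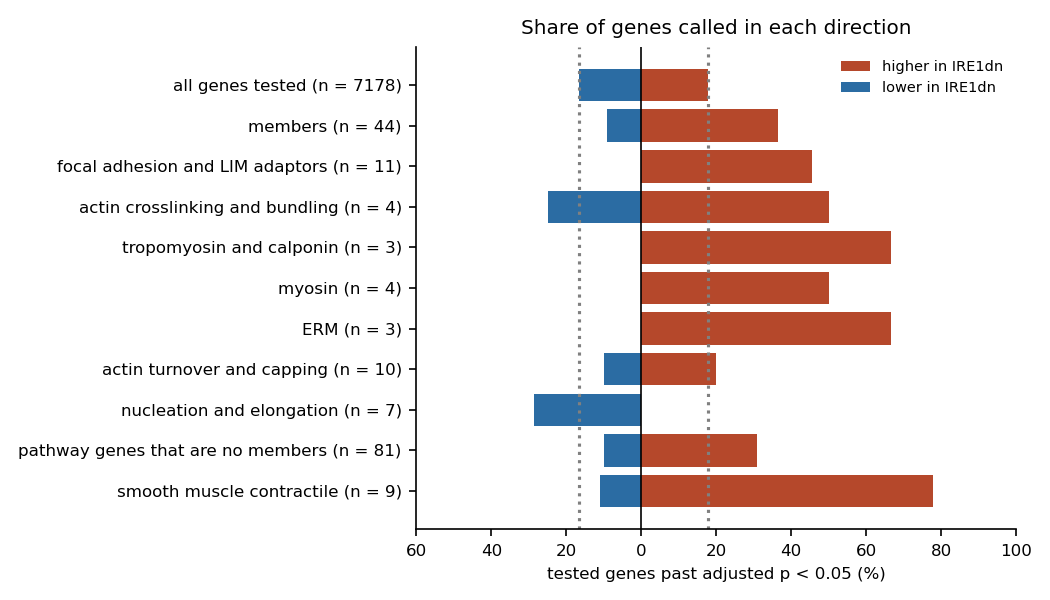
Percent of tested genes that passed the threshold, higher to the right and lower to the left, for all genes, the members, their role groups and the neighbouring lists; dotted lines mark all genes tested (17.9% and 16.5%). Nucleation and elongation is the only role group drawn here with no bar to the right.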

How the data were processed

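RNA of 6 samples was measured on Affymetrix arrays of 22277 probe sets. The deposited values are linear intensity signals that the authors scaled per array; GCOS 1.2 is named per the submitters' processing notes, and the summarisation is not given in the sources used here. Scaling to a common trimmed mean assumes that arrays carry like total signal. Gene names came from the platform annotation: 19064 probe sets named 1 gene, 1043 several and 2108 none, besides 62 control probe sets. For each gene the probe set with the highest mean was kept, its signal was transformed as log2(signal + 1.75), the 20th percentile of all values, and genes above the 40th percentile of mean signal were tested. Fold changes on this scale understate changes of dim genes. limma 3.58.1 (R 4.3.3; lmFit, eBayes with trend, no covariate) compared IRE1dn with ctrl, with Benjamini-Hochberg adjustment over 7178 genes and a threshold of 0.05; all p-values are two-sided. The number of arrays limits the precision. The procedure was tested on simulated data.

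The members and lists were chosen with earlier results of these data known, so their counts are descriptions. Values per array are given for members past the threshold whose groups do not overlap (up to 5 per role) and for ACTB, CFL1 and SRF; from other lists up to 3 genes per direction are named. The genes of 1 further list enter the totals and are not reported here by name. Alternatives covered the pseudocount, filter, scaling, probe set choice, variance model, array weights, a replicate block and each array left out. Sample columns left unused numbered 0.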

Additional observations from a re-analysis of the deposited data

How the results depend on the processing

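Of the 20 called members 11 kept their call in every alternative setting in which they were tested. ACTN1, ACTN4, ARPC1B, CNN3, CSRP1 and LASP1 were tested in all 19, and CAPZA1, GSN, MYH9, MYO10 and SVIL in 18, having no tested probe set once _s_at and _x_at ones were left out. No called member reversed in a setting that tested it. Leaving out single arrays gave 11 to 19 members higher and 3 to 4 lower, and 17 to 27 pathway genes higher and 2 to 8 lower. Medians then ranged from 0.36 to 0.48 for the members, 0.50 to 0.77 for focal adhesion, 0.56 to 0.66 for crosslinking, 0.59 to 0.94 for tropomyosin and calponin, 0.52 to 0.80 for myosin, 0.49 to 0.63 for ERM, 0.16 to 0.46 for turnover and -0.0345 to 0.21 for nucleation; the ACTB ratio difference ranged from -0.04 to 0.24. Without _s_at and _x_at probe sets fewer genes were tested. Then 9 members were higher and 2 lower, and 5 pathway genes were lower. Medians, over other sets of genes than the main ones, were 0.50 (22 members) and 1.14 (2 crosslinking genes). They were 0.91 for 3 myosin genes, 0.43 for 2 ERM genes and -0.47 for 3 nucleation genes. Leaving out ctrl array 2 and IRE1dn array 3 together, chosen after seeing the data, gave 14 pathway genes higher and 1 lower, and medians of 0.36 (members), 0.45 (ERM), 0.12 (turnover) and 0.17 (nucleation). Pathway genes lower numbered 5 without the intensity trend. Equal medians gave 0.35 (members) and 0.31 (turnover), the mean of probe sets 0.35 (members), 0.89 (myosin), 0.30 (ERM) and 0.28 (turnover), pseudocount 16 gave 0.53 (focal adhesion), no filter 0.91 (myosin) and quantile normalization 0.18 (turnover). Reversed values were TPM4 at -0.0249 without IRE1dn array 1, PFN2 at -0.10 without both arrays, VASP at -0.0167 (quantile), -0.0238 (equal medians), -0.0486 (array weights), -0.0947 (without IRE1dn array 1), -0.00907 (without ctrl array 1) and -0.0345 (without ctrl array 3), and WASL at 0.20 (array weights), 0.21 (without IRE1dn array 1), 0.05 (without ctrl array 2) and 0.10 (without both); without single arrays WASL ranged from -0.43 to 0.21. The cause was not tested. Over all genes 2468 passed, 1203 without both arrays, 1440 to 2663 without single arrays and 1565 without _s_at and _x_at probe sets. Same-numbered samples had deviations correlated at -0.10, 0.06 and 0.02, and no sample correlated best with its own number, so the numbers were not taken to pair samples; with the replicate block 14 members were higher and 3 lower, and 2276 of all genes passed. Signals near background limit MYH10, the second probe sets of VCL and SRF, and the dim probe sets of SVIL, EZR and PDLIM5.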
